A study of Drosophila melanogaster with 11 samples.

Results

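The Adh locus of Drosophila melanogaster holds the tandem genes Adh and Adhr, and Aldh encodes the next enzyme of the same pathway. These 3 of the 13931 genes of the table were taken by their CG numbers. They were chosen by earlier results of the same data, in which the counts of Adhr had been among the widest-ranging of the abundant genes between strains. Their differences among strains are therefore given as a description, with no test. The study sequenced poly-A RNA of fat bodies, the storage and metabolic organ of the larva, dissected from females at the late wandering stage of the third instar in 5 isofemale strains of a German population. An isofemale strain is founded by a single wild female and kept as a separate laboratory stock. There were 3 libraries of MU14 and 2 each of MU10, MU12, MU17 and MU26, and every library was a pool of 15 fat bodies raised under the same conditions with no treatment. Each strain stands for a single wild founder, and a difference between strains is a difference between these stocks.

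The alcohol dehydrogenase encoded by Adh oxidises ethanol to acetaldehyde and, in this species, also acetaldehyde to acetate, and it lets larvae live on fermenting fruit. The fat body is one of its main sites of expression. Adh is transcribed from a distal and a proximal promoter whose use changes in development. Adhr, an Adh-related member of the short-chain dehydrogenase family with no assigned substrate, lies directly downstream. Of its 3 annotated transcripts, 2 start at the Adh promoters and also contain Adh. Aldh encodes the mitochondrial aldehyde dehydrogenase, which turns acetaldehyde into acetate.

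Total counts per library ranged from 34631482 to 49582725. Levels are given in CPM, the counts of a gene per 1000000 counts of its library after TMM scaling, a correction for differences in library composition, and strain values are the mean and SD of the libraries. The 9 fat body markers together held 300900 to 457900 CPM in a library, with the highest values in MU26, at 448600 and 457900. The labelled tissue was thus matched by its defining genes. Markers of midgut and Malpighian tubule, tissues that also express Adh, summed to 0.570 to 6.52 CPM (6 genes) and 0.0294 to 0.489 CPM (4 genes). No marker of these tissues was at 0 counts in all libraries. In tissue samples of this kind fewer cells of a type and less RNA per cell cannot be told apart.

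In the Ensembl annotation of the BDGP6 assembly Adh (FBgn0000055, CG3481) and Adhr (FBgn0000056, CG3484) occupy the same span on chromosome 2L, 14615552 to 14618902 on the plus strand. Adh has 5 annotated transcripts and Adhr has 3. The coding exons of Adh lie at 14616339 to 14616437, 14616503 to 14616907 and 14616978 to 14617241, and those of Adhr follow at 14617548 to 14617643, 14618070 to 14618474 and 14618526 to 14618840. Of the 5 Adh transcripts, 2 have exactly the same exons as 2 of the 3 Adhr transcripts, with lengths of 2080 and 2024 bases. The other Adhr transcript, of 915 bases, starts at 14617511, beyond the coding exons of Adh. The table gives a length of 2080 bases for both genes, which equals the length of the longer shared transcript. All 2116 exonic bases of Adhr are also exonic in Adh, and only 138 of the 2254 exonic bases of Adh are not in Adhr. Adhr thus had 0 exonic bases of its own in this annotation.

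**Figure D1:**
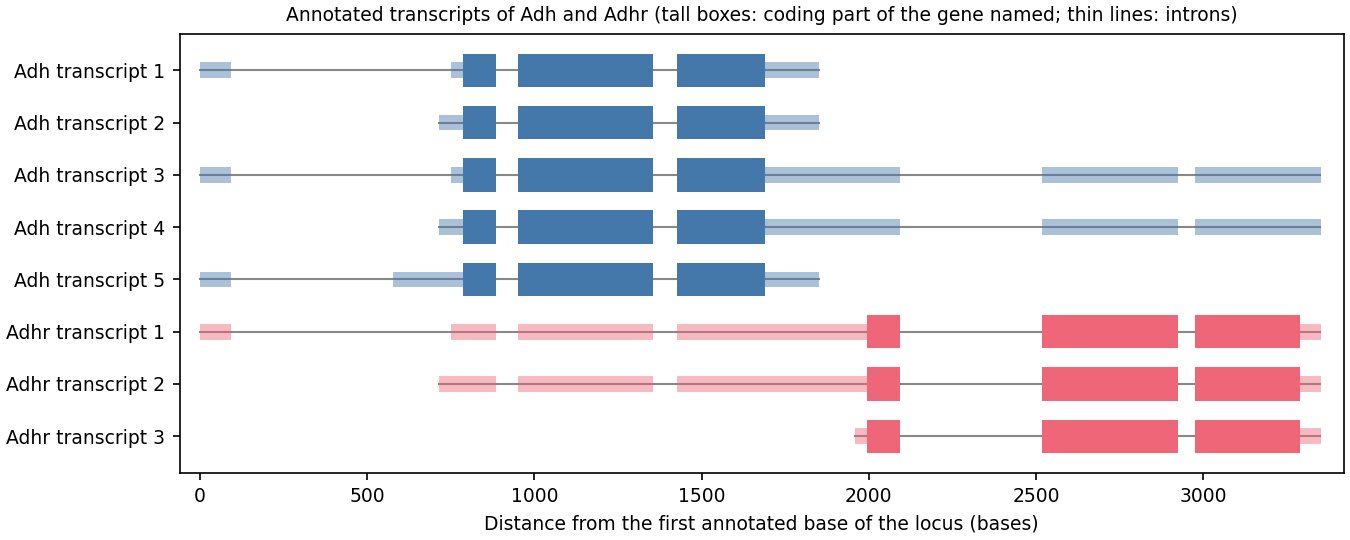
Annotated transcripts of Adh (blue, 5 transcripts) and Adhr (red, 3 transcripts), plotted by distance in bases from the first annotated base of the locus. Pale boxes are exons, tall dark boxes are the coding exons of the gene named, and lines are introns; the longest transcripts of both genes share every exon.

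The highest Adh counts were found in MU10. Adh had 899 and 752 CPM in the libraries of MU10, 247 and 575 CPM in those of MU12, and 212, 191 and 197 CPM in those of MU14. MU17 had 269 and 149 CPM and MU26 had 165 and 186. Both MU10 libraries lay above every library of the other strains, while the libraries of MU17 overlapped those of MU12, MU14 and MU26.

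The strain means of Adh were 826 ± 104 CPM (SD, n = 2) in MU10, 411 ± 232 (SD, n = 2) in MU12, 209 ± 84.9 (SD, n = 2) in MU17, 200.3 ± 10.8 (SD, n = 3) in MU14 and 176 ± 15.1 (SD, n = 2) in MU26. The fitted difference between MU10 and MU26 was 2.23 ± 0.39 (SE) on the log2 scale, or 4.70-fold. MU10 exceeded MU12 by 1.01 ± 0.38 (SE), the smallest of its differences from another strain. Among the 3 lower strains the fitted log2 differences ran from 0.06 ± 0.34 to 0.25 ± 0.37 (SE), smaller than their errors. The order of MU17, MU14 and MU26 was therefore not resolved.

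Adhr followed Adh library by library. In MU10 it had 2602 and 2115 CPM, and in MU12 689 and 1588. In MU14 it had 555, 504 and 514 CPM, in MU17 757 and 423, and in MU26 456 and 518. As for Adh, both MU10 libraries were the highest and the MU12 libraries lay far apart. The libraries of MU14 and MU26 overlapped for Adhr, whereas for Adh they did not. In the library MU10 replicate 1 Adhr was the 33rd most counted gene of the table and Adh the 132nd. The strain means of Adhr ran from 2358 ± 344 CPM (SD, n = 2) in MU10 to 487 ± 43.8 (SD, n = 2) in MU26, with a fitted log2 difference of 2.28 ± 0.39 (SE).

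Aldh (FBgn0012036, CG3752, chromosome 2L, 9387389 to 9391567, plus strand, 2 transcripts) showed another order of strains. It had 398 and 559 CPM in MU12, 114, 121 and 163 in MU14, and 97.2 and 73.4 in MU10. In MU17 it had 38.8 and 24.3 CPM, and in MU26 20.9 and 46.2. The libraries of MU12, MU14 and MU10 did not overlap with each other or with those of the lower strains, and MU17 and MU26 overlapped.

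The strain means of Aldh were 478 ± 114 CPM (SD, n = 2) in MU12, 132 ± 26.4 (SD, n = 3) in MU14, 85.3 ± 16.8 (SD, n = 2) in MU10, 33.5 ± 17.9 (SD, n = 2) in MU26 and 31.5 ± 10.3 (SD, n = 2) in MU17. MU12 exceeded MU17 by 3.92 ± 0.43 (SE) on the log2 scale, or 15.2-fold, and MU14 by 1.85 ± 0.35 (SE). MU14 and MU10, neighbours in this order, differed by 0.63 ± 0.36 (SE), and MU26 and MU17 by 0.09 ± 0.39 (SE). MU10, the strain with the most Adh, was thus the third for Aldh, and MU12 was first for Aldh and second for Adh.

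**Figure D2:**
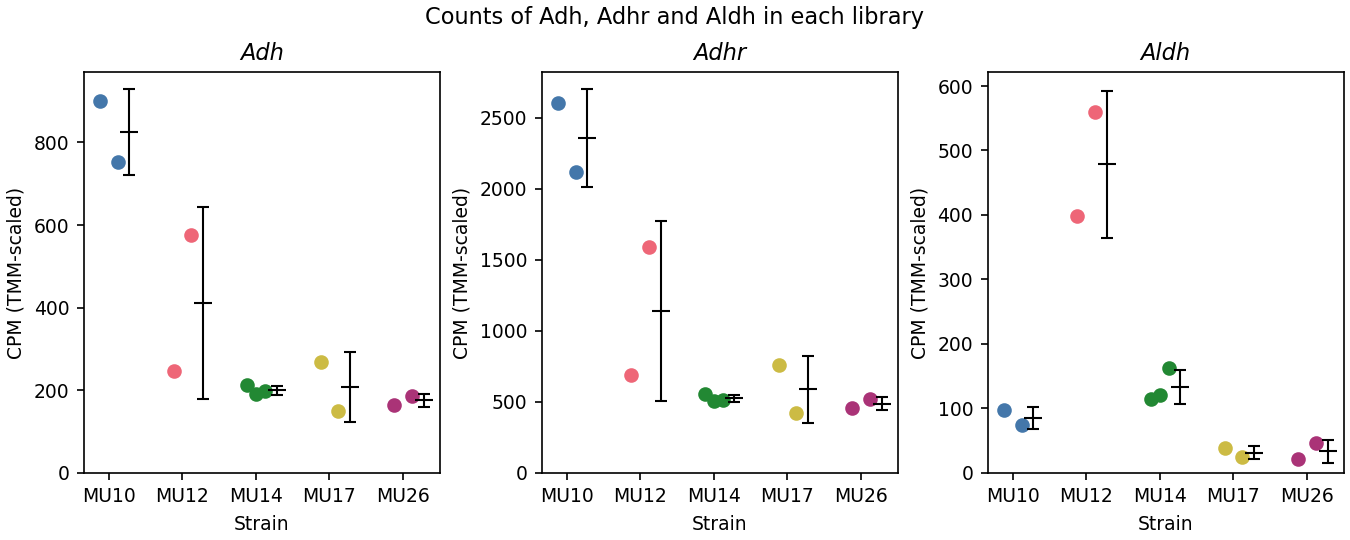
Counts of Adh, Adhr and Aldh in CPM for each of the 11 libraries (points, coloured by strain), with the strain mean and SD beside them (black bars). Adh and Adhr were highest in MU10, at 752 to 899 and 2115 to 2602 CPM, and Aldh was highest in MU12, at 398 to 559 CPM.

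All 3 genes varied between replicates more than most genes did. The SD of log2 CPM within strains, pooled over strains, was 0.44 for Adh, 0.44 for Adhr and 0.45 for Aldh, against a median of 0.21 over the 8415 genes tested. The libraries of MU12 differed 2.33-fold in Adh and 1.41-fold in Aldh, and those of MU26 differed 1.13-fold in Adh and 2.21-fold in Aldh. The range over strains was wider for Adh than for 86.7% of the tested genes, and for Aldh wider than for 95.2%. With edgeR's quasi-likelihood test across the 5 strains 3 of the 3 genes were called, where 48.3% of all tested genes were. Nothing is read from this count or from the range percentages, because the contrast was known when the genes were chosen.

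The next question was whether Adh and Adhr varied as separate genes. Adhr received between 72.3% and 74.3% of the reads of both genes in every library, with a mean of 73.4%, although the counts of Adh themselves ranged from 5208 to 41636. The log2 ratio of Adhr to Adh had an SD of 0.051 over the 11 libraries, while each gene spanned 2.60 and 2.62 log2 units. The lowest shares were those of the 3 MU14 libraries, at 72.3%, 72.5% and 72.3%, and the other 8 lay between 73.4% and 74.3%. The exact Clopper-Pearson 95% interval of MU14 replicate 2, for example, was 71.9% to 73.0% and that of MU10 replicate 1 was 74.1% to 74.5%. These intervals cover counting error only, since reads without molecular identifiers are not independent molecules.

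**Figure D3:**
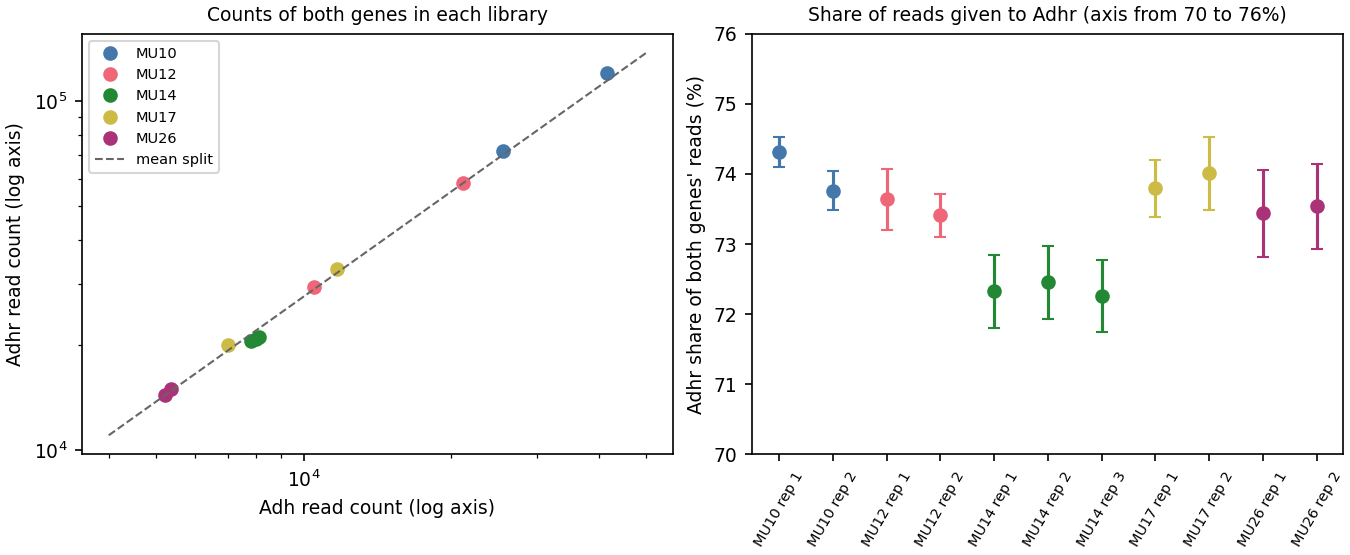
Left, Adhr against Adh read counts in each library on log axes, with a dashed line at the mean split. Right, share of the reads of both genes given to Adhr, in percent, with exact 95% intervals, on an axis that does not start at 0; the MU14 libraries lie at 72.3% to 72.5% and all others at 73.4% or above.

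By the study's methods, read pairs that mapped to different genes or transcripts were discarded, and how pairs from the shared Adh and Adhr exons came to be counted for each gene is not given in the sources used here. A level of Adhr apart from Adh can therefore not be read from these counts, and the sum of both rows is the safer measure of the locus. The sum was 3184 ± 448 CPM (SD, n = 2) in MU10, 1549 ± 868 (SD, n = 2) in MU12, 798 ± 321 (SD, n = 2) in MU17, 724 ± 37.9 (SD, n = 3) in MU14 and 663 ± 58.9 (SD, n = 2) in MU26. If pairs were lost as ambiguous, these sums understate the locus by an unknown factor. If pairs were counted in both rows, they overstate it.

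Set against Aldh per base of deposited length, the summed counts of the locus were in excess in all libraries, but to a very different degree. The size of this excess depends on how pairs of the locus were counted, which is not known. The ratio of the summed Adh and Adhr counts per kb to the Aldh counts per kb was 35.8 and 38.9 in MU10, 26.3 and 23.4 in MU17, and 29.6 and 15.2 in MU26. It was 6.70, 5.74 and 4.35 in MU14 and 2.34 and 3.85 in MU12. Every library of MU12 and MU14 thus lay below every library of the other 3 strains. The mean level of Aldh was 73.6 CPM per kb. The row of Adh alone had 175 CPM per kb with the deposited length and 162 with the annotated exons. It is not compared with Aldh, because how the reads of the locus were split is not known.

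The likeness of other genes was measured as the root mean square difference of log2 CPM, centred per gene, over the 11 libraries, among 4401 other genes with a mean of at least 10 CPM. Adhr, which had no exonic bases of its own in the annotation, was the nearest gene to Adh, with a difference of 0.049. The next was Plod, a procollagen lysyl hydroxylase gene, at 0.38, followed by cDIP, a leucine-rich repeat protein gene, at 0.40, CG13252 at 0.41 and cora, which encodes a septate junction protein, at 0.42. The median over all these genes was 0.90. These 4 genes were each highest in MU10, as Adh was, which their choice by likeness over the same libraries favours. Over the 5 strain means 3 of the 5 nearest genes of Adh stayed among its 5 nearest.

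The difference between Aldh and Adh by this measure was 1.38, which put Aldh at place 4146 of 4401 seen from Adh, but Adh at place 1013 seen from Aldh. The nearest genes to Aldh were Cyp12c1, a mitochondrial P450 gene, at 0.65, Nrt, the adhesion protein neurotactin, at 0.70, Arc1, a capsid-forming Arc gene, at 0.75, Obp99a, an odorant-binding protein gene, at 0.76, and CG31793 at 0.76, against a median of 1.48 over all genes. All 5 were highest in MU12, as Aldh was, which their choice by likeness over the same libraries favours. All 5 were also the nearest over the strain means, which are averages of the same values. The measure favours genes whose range is like that of the member and is given as a description, since libraries of a strain are not independent.

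The other enzymes of alcohol and aldehyde handling were examined next. Of 7 enzymes that oxidise alcohols or aldehydes or activate acetate, 5 (71.4%) passed edgeR's test across strains, against the 48.3% of all tested genes. Their median widest log2 difference between strains was 1.02, and the median over all tested genes was 0.79. Sodh1, a sorbitol dehydrogenase gene, had 271 and 416 CPM in MU12, 171 and 220 in MU10, and 3.14 and 14.0 in MU26. It had 34.4, 49.5 and 45.2 CPM in MU14 and 75.1 and 18.7 in MU17. The MU12 and MU10 libraries thus lay above all others, and MU12 exceeded MU26 by 5.33 ± 0.85 (SE) on the log2 scale (edgeR's adjusted p across strains = 0.0040).

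Its close copy Sodh2, whose counts are uncertain because reads of similar copies may be discarded, was 37.1 ± 18.4 CPM (SD, n = 2) in MU12 and 2.22 ± 2.55 (SD, n = 2) in MU26 (edgeR's adjusted p = 0.014, and 0.062 without MU12 replicate 2). The catalase gene Cat, whose enzyme breaks down hydrogen peroxide and can oxidise ethanol with it, had 3193 and 2997 CPM in MU12, 1976, 1903 and 2138 in MU14, and 1592 and 1511 in MU10. It had 1062 and 1038 CPM in MU17 and 777 and 1202 in MU26. The order of the first 3 strains was that of Aldh, and MU12 exceeded MU26 by 1.64 ± 0.18 (SE) on the log2 scale (edgeR's adjusted p = 0.00067).

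CG31075, listed among these enzymes, was 5680 ± 107 CPM (SD, n = 2) in MU12, 5675 ± 848 (SD, n = 2) in MU26 and 3119 ± 13.8 (SD, n = 2) in MU17 with a fitted log2 difference of 0.86 ± 0.11 (SE) and an edgeR adjusted p of 0.00096. Aldh-III moved little, with 196 ± 5.97 CPM (SD, n = 3) in MU14 and 140 ± 8.49 (SD, n = 2) in MU12 and a fitted log2 difference of 0.49 ± 0.10 (SE), for which edgeR's adjusted p was 0.015. AcCoAS, which joins acetate to coenzyme A, did not pass, with means from 212 ± 66.9 CPM (SD, n = 2) in MU12 to 430 ± 24.1 (SD, n = 2) in MU17 (edgeR's adjusted p = 0.13). Fdh, the glutathione-dependent formaldehyde dehydrogenase, also did not pass, with 130.2 ± 0.912 CPM (SD, n = 2) in MU10 and 76.8 ± 19.0 (SD, n = 2) in MU26 (edgeR's adjusted p = 0.087).

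Of 6 further members of the aldehyde dehydrogenase superfamily 5 were tested and 3 passed (60%, with 48.3% over all genes), and P5CDh2 fell below the count filter. CG8665 had 85.2 and 234 CPM in MU12, 84.2 and 40.3 in MU17, and 25.7, 27.2 and 35.5 in MU14. It had 10.6 and 10.8 CPM in MU10 and 1.55 and 1.46 in MU26. MU26 lay far below all other strains, by 6.73 ± 0.60 (SE) on the log2 scale from MU12 (edgeR's adjusted p = 0.00028). Ssadh, the succinic semialdehyde dehydrogenase, was 87.1 ± 20.3 CPM (SD, n = 2) in MU12 and 44.2 ± 10.9 (SD, n = 2) in MU17 (edgeR's adjusted p = 0.016, and 0.052 without MU17 replicate 2). CG17896, also of the superfamily, had a mean of 148.5 ± 57.5 CPM (SD, n = 2) in MU26 and 47.7 ± 8.55 (SD, n = 2) in MU17 (edgeR's adjusted p = 0.0097, and 0.051 without MU17 replicate 1).

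Over both lists 8 of 12 tested enzymes passed, where 48.3% of all tested genes did, and 6 of these 8 had their highest mean in MU12, as Aldh had. For CG31075 the mean of MU26 and for Ssadh that of MU14, 87.0 ± 1.90 CPM (SD, n = 3), lay within the replicate spread of the MU12 mean. In the other 4 both MU12 libraries lay above every other library. Of all called genes 24.4% were highest in MU12. None of the 8 called enzymes was highest in MU10, the strain with the most Adh. With DESeq2 the count of called members of the superfamily list was 5 of 5.

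**Figure D4:**
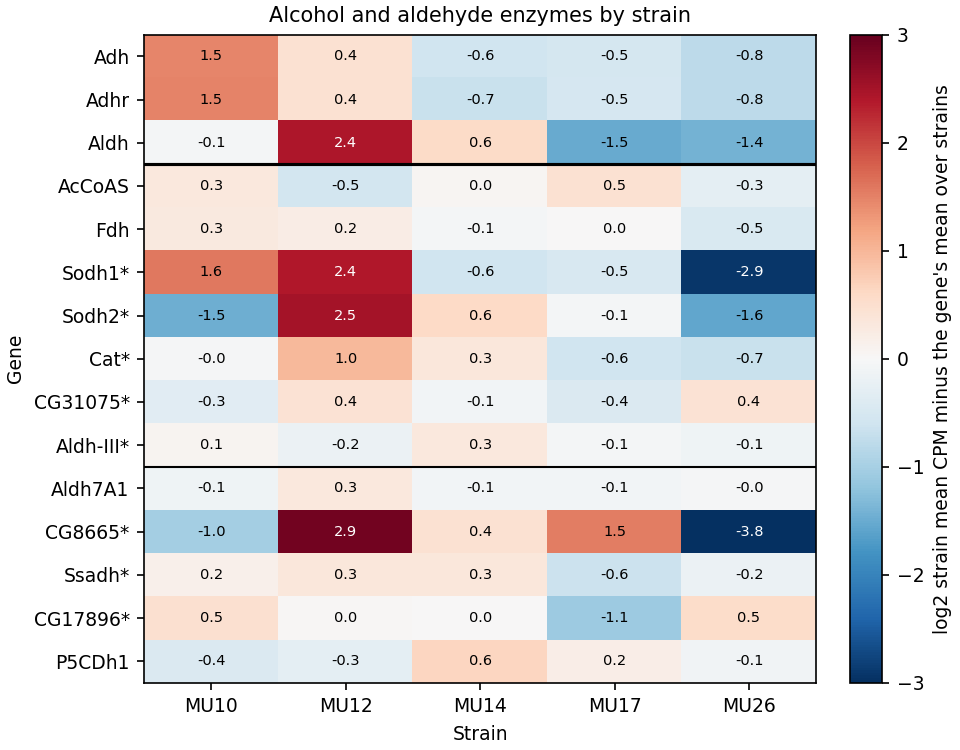
Strain mean CPM of the 3 genes (top) and of the tested alcohol and aldehyde enzymes (middle, 7 genes) and further aldehyde dehydrogenases (bottom, 5 genes), as the log2 difference from the mean of the gene over the 5 strains. Stars mark the 8 of 12 enzymes outside the chosen genes that passed edgeR's test across strains; CG8665, Sodh1 and Sodh2 share their highest strain, MU12, with Aldh.

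Fbp2, whose protein resembles that of Adh, is one of the most abundant messages of the larval fat body. It was 33590.0 ± 2303 CPM (SD, n = 2) in MU26, 31850.0 ± 1388 (SD, n = 2) in MU10 and 19520.0 ± 1362 (SD, n = 2) in MU17, with a log2 difference of 0.78 ± 0.11 (SE) between the first and the last, close to the median of all tested genes, 0.79 (edgeR's adjusted p = 0.0029). Of the 5 listed Adh-like dehydrogenase genes Pdh, Antdh and CG18814 fell below the count filter. CG4842 was tested and did not pass, at 22.2 CPM in MU10 and 8.70 in MU12 (edgeR's adjusted p = 0.067). The list had 1 called member, and 2 without MU14 replicate 3 or without MU26 replicate 1.

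Acetyl-CoA from ethanol can be built into lipid, and 4 of 11 genes of lipid synthesis and of NADPH and glycerol phosphate supply passed (36.4%, with 48.3% over all genes). Desat1, an acyl-CoA desaturase gene, had 57.2 and 131 CPM in MU12, its lowest strain, and 1012 and 882 in MU26, its highest. It had 222 and 231 CPM in MU10, 422, 321 and 384 in MU14, and 561 and 445 in MU17. MU14 lay above MU10, as for Aldh, but MU12 was the highest strain for Aldh and the lowest for Desat1. MU12 and MU26 did not overlap, and the difference was 3.33 ± 0.36 (SE) on the log2 scale (edgeR's adjusted p = 0.00097). FASN1, a fatty acid synthase gene, was also lowest in MU12, at 128 ± 11.6 CPM (SD, n = 2), and highest in MU14, at 486 ± 92.6 (SD, n = 3), with edgeR's adjusted p = 0.0014.

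ATPCL, the ATP citrate lyase gene, was 98.8 ± 7.98 CPM (SD, n = 2) in MU10 and 35.8 ± 2.49 (SD, n = 3) in MU14 (edgeR's adjusted p = 0.012, and 0.053 without MU14 replicate 1). Pgd, of the pentose phosphate pathway, was 65.6 ± 21.1 CPM (SD, n = 2) in MU12 and 34.5 ± 2.93 (SD, n = 3) in MU14, with edgeR's adjusted p = 0.039. Leaving out MU10 replicate 1 or 2 raised this value to 0.070 or 0.071, MU14 replicate 1, 2 or 3 to 0.092, 0.12 or 0.087, and MU17 replicate 2 to 0.058, and it was 0.055 with upper-quartile scaling. Men, the malic enzyme gene, did not pass and differed widely between replicates, at 404.5 ± 34.5 CPM (SD, n = 2) in MU10 and 280 ± 232 (SD, n = 2) in MU12 (edgeR's adjusted p = 0.68).

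Transcription factors described as acting on the Adh promoters or its fat body enhancer were measured in all 6 cases, and 3 passed (50%), near the 48.3% of all tested genes. Their median widest log2 difference was 0.73, and that of all tested genes was 0.79. The GATA factor gene srp, which directs fat body development, had 574 and 584 CPM in MU10 and 306 and 337 in MU17 and was highest in MU10, as Adh was. It had 456 and 583 CPM in MU26, the strain with the lowest Adh mean (edgeR's log2 difference 0.85 ± 0.14 (SE) for MU10 over MU17, adjusted p = 0.0071). The C/EBP gene slbo had 0 counts in both MU10 libraries and 22.8 and 4.0 CPM in MU12. MU12 was at least 359-fold higher at a floor of 3 counts over the MU10 libraries, and at least 107-fold without MU12 replicate 1, with edgeR's adjusted p = 0.0034 and 0.22 with limma-voom. Aef1, a zinc finger repressor gene, was 13.7 ± 1.21 CPM (SD, n = 2) in MU17 and 8.99 ± 0.234 (SD, n = 2) in MU12. Its adjusted p was 0.048 by edgeR's test, and 0.051 to 0.14 when any single library other than MU26 replicate 2 was left out. Adf1, ftz-f1 and Hr39 did not pass, with Adf1 means from 8.93 CPM in MU14 to 13.7 in MU17 and Hr39 means from 38.4 in MU12 to 52.3 in MU10.

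Adh and its neighbours were compared by position. The locus lies within the span of outspread (osp, chromosome 2L, 14599196 to 14689340), which is transcribed from the minus strand and shares 0 exonic bases with Adh. Whether the counting used strand is not given in the sources used here. osp had 71.6 and 82.2 CPM in MU10 and 35.7 and 32.8 in MU12, and between 51.1 and 67.4 CPM in the libraries of the other strains. Like Adh it was highest in MU10, but it was lowest in MU12, the second strain for Adh, and the difference between them was 1.17 ± 0.16 (SE) on the log2 scale (edgeR's adjusted p = 0.0048). Of 7 genes within 100 kb of Adh 3 were tested and all 3 were called, where 48.3% of all tested genes were. CG42680, at -27.3 kb from the locus, was 22.7 ± 5.17 CPM (SD, n = 3) in MU14 and 1.24 ± 0.593 (SD, n = 2) in MU10 (edgeR's adjusted p = 0.013). CG15282, 93.6 kb beyond it, was 1.85 ± 0.0553 CPM (SD, n = 3) in MU14 and 0.203 ± 0.0792 (SD, n = 2) in MU10 (edgeR's adjusted p = 0.0027). Both had their lowest mean in MU10, but their MU10 and MU12 libraries overlapped. In MU12 CG42680 was 1.81 ± 1.72 CPM (SD, n = 2) and CG15282 was 0.261 ± 0.169 (SD, n = 2).

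Aldh lies within the span of Shawl (chromosome 2L, 9370309 to 9415156, minus strand), a potassium channel gene with which it shares 0 exonic bases. Shawl had 5.11 and 6.70 CPM in MU17 and 3.26 and 2.41 in MU10, and at most 0.222 CPM in any library of MU12, MU14 and MU26. Its log2 difference for MU17 over MU14 was 5.26 ± 0.37 (SE), with edgeR's adjusted p = 3.6e-05. Its highest strain, MU17, had the lowest Aldh mean but overlapped for Aldh with MU26, in which Shawl was low. Of 20 genes within 100 kb of Aldh 11 were tested and 9 were called (81.8%, with 48.3% over all genes), and their median widest log2 difference was 1.51. numb, a cell fate gene 45.9 kb from Aldh, was 42.9 ± 7.31 CPM (SD, n = 2) in MU10 and at most 4.98 ± 1.89 (SD, n = 2) in the other strains (edgeR's adjusted p = 8.3e-05). Ggamma30A, a G protein subunit gene, was 1.46 ± 0.287 CPM (SD, n = 3) in MU14 and 0.114 ± 0.0629 (SD, n = 2) in MU26 (edgeR's adjusted p = 0.0013). Cks30A, a cell cycle kinase subunit gene, was 1.20 ± 0.114 CPM (SD, n = 3) in MU14 and 0.372 ± 0.0983 (SD, n = 2) in MU10, with edgeR's adjusted p = 0.026. Its adjusted p was 0.081, 0.052, 0.054, 0.053, 0.066 and 0.065 without MU10 replicates 1 and 2, MU12 replicates 1 and 2 and MU14 replicates 1 and 2. Fbp2, already described, also lies in this window, 35.2 kb from Aldh. Of the 9 called neighbours only Gdi, picked out after its values were seen, was highest in MU12, the strain with the most Aldh, at 548 ± 4.89 CPM (SD, n = 2).

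**Figure D5:**
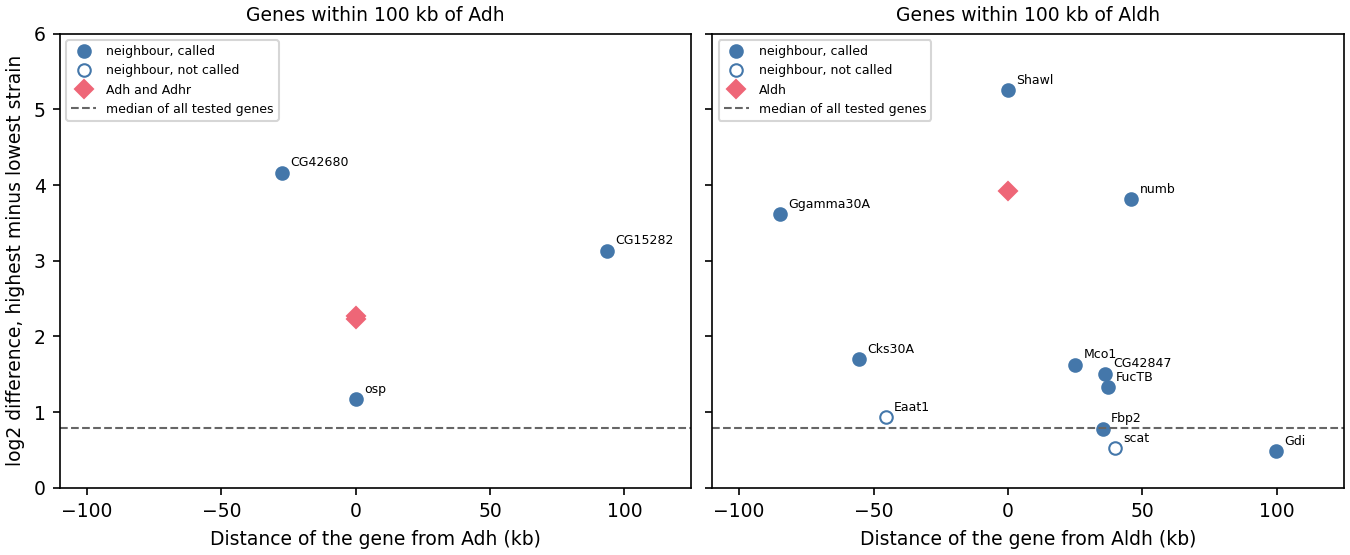
Widest log2 difference between strain means for tested genes within 100 kb of Adh (left, 3 genes) and of Aldh (right, 11 genes), by distance in kb; distance 0 marks a gene whose span holds the locus. Filled points passed edgeR's test across strains, diamonds are Adh, Adhr and Aldh, and the dashed line is the median of all tested genes, 0.79.

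Genes that change over hours at this stage were measured as well. Of 18 ecdysone response and glue genes 9 (50%) passed, near the 48.3% of all tested genes. With limma-voom 5 passed and with DESeq2 13, where these tools called 3872 and 5016 of all tested genes. The glue protein gene Sgs3 had 0.885 and 0.706 CPM in MU10, the strain with the most Adh, and 17.2 and 41.8 in MU17, a fitted log2 difference of 5.20 ± 0.78 (SE) for which edgeR's adjusted p was 0.0026. Sgs4 (edgeR's adjusted p = 0.0082), Sgs5 (0.0040) and Sgs7 (0.024) were likewise lowest in MU10 and highest in MU17. With limma-voom the adjusted p was 0.13 for Sgs4, 0.12 for Sgs5 and 0.062 for Sgs7, and that of Sgs7 by edgeR was 0.063 without MU10 replicate 2 and 0.087 without MU17 replicate 2. The 6 salivary gland markers, 5 of them glue genes, summed to 3.68 to 6.22 CPM in MU10, 14.2 to 16.4 in MU12, 11.4 to 18.2 in MU26, 30.2 to 101 in MU14 and 50.6 to 144 in MU17.

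The ecdysone response gene Eip75B was lowest in MU12, where Aldh was highest, at 197 ± 31.6 CPM (SD, n = 2), and highest in MU26, at 507 ± 56.0 (SD, n = 2), with edgeR's adjusted p = 0.0013. Eip74EF was also lowest in MU12 (edgeR's adjusted p = 0.035), while MsrA was lowest in MU17 (0.0076) and ImpE1 in MU10 (0.032). Among members that did not pass, usp, br, Hr3, Hr4 and Eip78C were lowest in MU12, and EcR, Eip93F, ImpE2 and ImpL2 in other strains. The 6 haemocyte markers summed to 97.9 to 162 CPM in MU10, 49.8 to 81.1 in MU12 and 73.9 to 88.4 in MU14. In MU26 they summed to 36.4 to 42.1 CPM and in MU17 to 83.4 to 103, above MU12, the second strain for Adh. All 6 passed edgeR's test across strains, which 48.3% of all tested genes did. Neither the part of developmental timing nor that of other cells in the differences of Adh and Aldh was tested.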

How the data were processed

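The values analysed were read counts of genes in 11 libraries, deposited in 1 table with a gene length whose derivation is not given in the sources used here. According to their methods the authors mapped paired reads to a FlyBase transcriptome with NextGenMap, dropped pairs fitting several genes or transcripts and added up the counts of each gene's transcripts, so the deposited counts are raw. Genes were matched to the Ensembl annotation of the same assembly by FlyBase identifier (13843) or CG number (75), and 13 were not matched; the annotation is newer than the authors'.

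The 8415 of 13931 genes whose counts averaged 15 or more over the libraries were fitted with edgeR (version 4.0.16, R 4.3.3), TMM factors and 1 coefficient per strain. A quasi-likelihood F test across strains used Benjamini-Hochberg adjustment over all tested genes at 0.05. SEs were derived from the log2 difference and its F statistic. No library was a repeat of another of its strain, since chi-square divided by its degrees of freedom was 53.9 or more between replicates. Libraries of different strains were not compared in this way. The fit was tested on simulated counts. The study calls the libraries of a strain biological replicates, each of 15 dissected fat bodies. The sources do not say whether they came from separate cultures, so p-values measure only the spread between these pools.

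The 3 genes, the lists and the rules were chosen with earlier results of these data known. Named were the 3 genes, up to 4 called members per list with the widest range, osp, and for each of the 3 genes the 5 of nearest pattern; other list genes in the text were added after their values were seen. Marker lists for muscle and germ line were also measured, at 8.36 to 30.8 and 2.20 to 11.4 CPM in sum. Alternatives were RLE and upper-quartile scaling, no filter, filterByExpr, DESeq2 (version 1.42.0), limma-voom (version 3.58.1), a replicate block and leaving out each library.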

Additional observations from a re-analysis of the deposited data

How the results depend on the processing

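The widest log2 differences of Adh, Adhr and Aldh kept their direction under all alternatives tried. Leaving out single libraries gave 2.11 to 2.36 for Adh, 2.13 to 2.42 for Adhr and 3.62 to 4.30 for Aldh, and the other alternatives stayed within 2.18 to 2.24, 2.22 to 2.28 and 3.90 to 3.94. The count of genes differing among strains was 4063, and ran from 3131 with the replicate block to 5016 with DESeq2, and from 3133 to 4008 with a library left out. Upper-quartile scaling shifted the median log2 difference of a pair of strains by between -0.15 and 0.09.

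List counts moved by over 1.5 times in these cases: with DESeq2 5 further aldehyde dehydrogenases and 2 Adh-like genes were called, with the replicate block 2 lipid synthesis genes, and with limma-voom 5 ecdysone genes. With a library left out the Adh-like count was 1 to 2 and the ecdysone count 5 to 12. Of 26 named list genes none changed direction, and 0 to 4 were no longer called with a library left out. With the replicate block the adjusted p of Ssadh was 0.057, of ATPCL 0.074, of Pgd 0.12 and of Aef1 0.072, and these 4 were no longer called. Nor were 4 with limma-voom (slbo, Sgs4, Sgs5, Sgs7), 2 with upper-quartile scaling (Pgd, Aef1), and Aef1 without a filter and with filterByExpr. The cause was not tested. Replicate numbers did not pair the libraries: replicate differences correlated from -0.25 to 0.27 between strains, over 0.1 in 3 of 10 pairs. Depth limits only genes near the count filter; for Adh and Adhr the shared exons limit the reading.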

Other observations

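The constant split of reads between Adh and Adhr was set beside other genes with shared exons. In 96 pairs of tested genes on the same strand at least 90% of the exonic bases of each gene lay in the other. The SD over the 11 libraries of the log2 ratio of their counts had a median of 0.29 and ran from 0.049 to 2.49, and Adh with Adhr was the second lowest, at 0.051. The pair gem and CG46319 was lowest, and the pairs CG42837 with Lipt1, CG42353 with CG42354 and CG12016 with Dpm2 followed at 0.053, 0.060 and 0.063; these were picked after their values were seen. The SD of such a ratio includes counting error, which is larger at low counts. The less counted gene of the pair had a mean of 13830 counts for Adh with Adhr. It had 117 for anox with SLIRP1, a pair near the median with an SD of 0.30. Against this order, CG6726 with CG17110 had 3402 counts and an SD of 1.48. Some genes also belong to several pairs. The part of depth in the rank of Adh with Adhr was not tested. Counts of genes with shared exons in this table need the same caution as those of Adhr.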
